A study of Oncorhynchus mykiss with 9 samples.

Results

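Severe hypoxia, 3.0 mg/L dissolved oxygen for 12 h, was set against normoxia, 8.5 mg/L and labelled 0 h, in the head kidney of Oncorhynchus mykiss, the rainbow trout. The genes compared were the 27336 of 44219 gene rows of the deposited expression table with a mean count of at least 10 per library in either group. Rows that carry the same symbol were also summed, and 15869 symbols reached that minimum. The fish were full siblings of about 130 g kept at 12 °C, with 3 libraries in the severe hypoxia group and 3 in the control group. One further group, moderate hypoxia at 4.5 mg/L for 12 h, is quoted beside single genes only, and its ratios share the control libraries. Each gene has a single mean estimated count and a single FPKM (fragments scaled by transcript length and library size) in each group. How much fish of a group varied cannot be seen from such values, so the differences below are untested and carry no p-value. Besides oxygen, the severe group and the control have different labelled times, and the effects of time and oxygen cannot be told apart.

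Vertebrate cells sense oxygen through prolyl hydroxylases of the egln family, which mark the alpha subunits of hypoxia-inducible factor (HIF) for destruction while oxygen is present. When oxygen falls the subunits persist, pair with arnt and switch on genes for glucose uptake, lactate export, vessel growth and the hydroxylases themselves. The head kidney of bony fishes is their main blood-forming organ and also houses the interrenal cells, which make cortisol, and the chromaffin cells, which make catecholamines. RNA was taken from the whole organ, so fewer cells of a type and less RNA per cell cannot be told apart.

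Libraries averaged 14700244 counts in severe hypoxia and 15246482 in the control. Globin transcripts took 7.37% of counts in severe hypoxia and 13% in the control, and mitochondrially encoded transcripts took 4.24% in severe hypoxia and 5.14% in the control. Levels below are deposited mean counts per library, and ratios are log2 of severe hypoxia over control after trimmed-mean scaling, which divided severe counts by 1.22. On library totals every ratio is larger by 0.34, and the median of all symbols is 0.31 rather than -0.03. Bracketed ranges are 95% intervals for counting error only, computed on counts rounded to whole numbers. A gene was counted as higher or lower at 2-fold or more.

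Of the gene rows, 3398 were at least 2-fold higher in severe hypoxia (12.4%) and 1175 were at least 2-fold lower (4.30%). Of the symbols, 1576 were higher (9.93%) and 435 were lower (2.74%), so that 78.4% of the symbols past 2-fold were higher. That share was 93.0% on library totals, with 2530 symbols higher and 191 lower. The differences concentrated among weakly expressed genes: of 5079 symbols under 100 counts in both groups, 21.6% were at least 2-fold higher and 5.43% lower. Of 1973 symbols with 1000 counts or more, 1.37% were higher and 2.13% lower. The minimum favours differences among weak genes, since a gene can enter through its level in a single group. Counts of higher and lower members of a gene list are therefore read beside the shares of all symbols. Of all symbols, 47.6% lay above 0 and 52.4% below.

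The table writes many gene names in more than one letter case (Mr1 and MR1), each spelling on rows of its own, and values below are per spelling unless said otherwise. Of the symbols, 4755 share their letters with another spelling. Of the 608 such symbols past 2-fold, 162 stayed past 2-fold in the same direction when all spellings of a name were summed. Ratios called joined below are those sums over spellings, and they are given wherever joining ends a 2-fold difference or moves it by more than 1.5 times. Of all 13482 joined symbols, 1169 were at least 2-fold higher (8.67%) and 330 lower (2.45%). Joined counts of list members are read beside these shares.

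**Figure D1:**
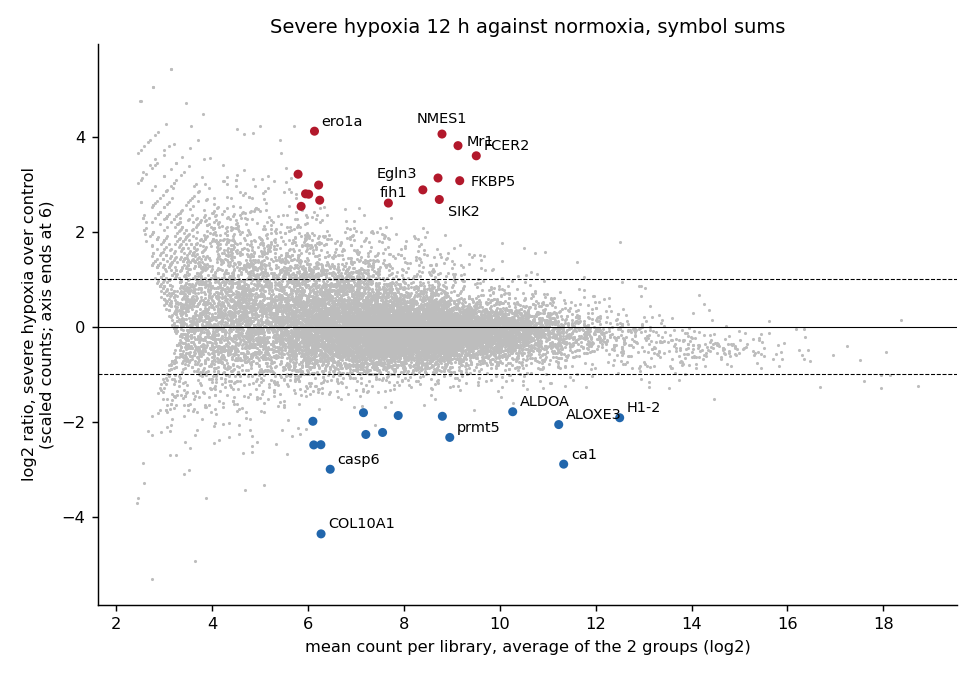
Each grey point is 1 of the 15869 symbols, placed by the average of its mean counts in both groups (horizontal, log2) and by its log2 ratio of severe hypoxia over control (vertical, scaled counts). Red and blue points are the 15 largest ratios in each direction under the naming rule, and dashed lines mark 2-fold. The spread narrows toward abundant genes, and the coloured points run from ero1a at 4.12 to COL10A1 at -4.36. Of the 30 coloured symbols, 9 (Mr1, calcrl, prmt5, casp6 and ALDOA among them) are under 2-fold when spellings are joined.

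The oxygen sensors were among the genes with the largest differences. Egln3, the prolyl hydroxylase that HIF itself induces, had 766 counts in severe hypoxia and 71.7 in the control, a log2 ratio of 3.13 [2.93 to 3.34]. Both of its copies were high, at 441 counts in severe hypoxia against 31.7 in the control for the first and 325 in severe hypoxia against 40.0 in the control for the second. Other hydroxylase symbols followed in order of their ratios. The symbol egln1 had 198 counts in severe hypoxia and 43.0 in the control (log2 ratio 1.91), EGLN2 had 492 in severe hypoxia and 111 in the control (1.87, and 0.84 joined with egln2), and Egln1 had 107 in severe hypoxia and 40.0 in the control (1.13). The remaining symbols egln1a and egln2 were at 0.28 and 0.21. Factor inhibiting HIF, which hydroxylates an asparagine of the alpha subunit, is annotated under fih1, with 605 counts in severe hypoxia and 67.3 in the control (log2 ratio 2.88). A second symbol for that enzyme, hif1an, was at 0.24.

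The HIF subunits themselves differed by less, with the exception of 1 symbol of HIF-2 alpha. The abundant hif1a symbol had 1556 counts in severe hypoxia and 1023 in the control (0.32), HIF1A had 715 in severe hypoxia and 607 in the control (-0.05, and 0.29 on library totals), and arnt, the partner subunit, was at 0.33. Epas1, which encodes HIF-2 alpha, had 195 counts in severe hypoxia and 38.3 in the control (2.06 [1.77 to 2.36], and 1.39 joined with EPAS1). The weaker EPAS1 symbol had 16.7 counts in severe hypoxia and 28.0 in the control (-1.04), and its 2 rows pointed in opposite directions, at 1.01 and -2.27. The ubiquitin ligase component vhl, which binds hydroxylated HIF, was at 0.89. Of the 18 symbols of the oxygen sensing list, 5 were at least 2-fold higher and 1 lower, 14 were above 0, and their median was 0.30, against -0.03 for all symbols. Joined, 3 of 14 were higher and 0 lower.

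Among 75 symbols of known HIF targets, 17 were at least 2-fold higher, 3 lower and 49 above 0, with a median of 0.20. Joined, 13 of 58 were higher and 1 lower. The largest was ero1a, an endoplasmic reticulum oxidase that forms disulfide bonds, with 134 counts in severe hypoxia and 6.33 in the control (4.12 [3.45 to 4.86]). The vascular peptide apelin, apln, had 264 counts in severe hypoxia and 54.0 in the control (2.00). COX4I2, the subunit of cytochrome c oxidase used in low oxygen in mammals, had 144 counts in severe hypoxia and 33.0 in the control (1.84). The glucose transporter Slc2a1 had 428 counts in severe hypoxia and 101 in the control (1.80), and ddit4, which restrains mTORC1, had 476 in severe hypoxia and 158 in the control (1.31). These targets share low or moderate levels: in FPKM, Slc2a1 stood at 6.53 in severe hypoxia and 1.48 in the control, and COX4I2 at 3.92 in severe hypoxia and 0.870 in the control.

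The most abundant targets differed little. Annexin ANXA1 had 4256 counts in severe hypoxia and 4194 in the control (-0.27, and 0.07 on library totals), the chemokine receptor CXCR4 had 4895 in severe hypoxia and 4406 in the control (-0.14, and 0.20 on totals), and the glycolytic kinase pgk1 had 5359 in severe hypoxia and 4095 in the control (0.10). The mitophagy receptor Bnip3 was at 3105 counts in severe hypoxia and 1960 in the control (0.38), while the separate symbol bnip3 was at 1712 in severe hypoxia and 1521 in the control (-0.12, and above 0 on totals). Vascular endothelial growth factor was carried by 3 symbols, with vegfab at 138 counts in severe hypoxia and 67.3 in the control (0.75), vegfaa at 0.13 and VEGFA at 0.04. The erythropoietin gene epo was close to undetected in this organ, at 3.67 counts in severe hypoxia and 1.33 in the control over its 3 rows. Carbonic anhydrase ca9, a strong HIF target in mammals, was at 0.667 counts in severe hypoxia and 0 in the control.

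**Figure D2:**
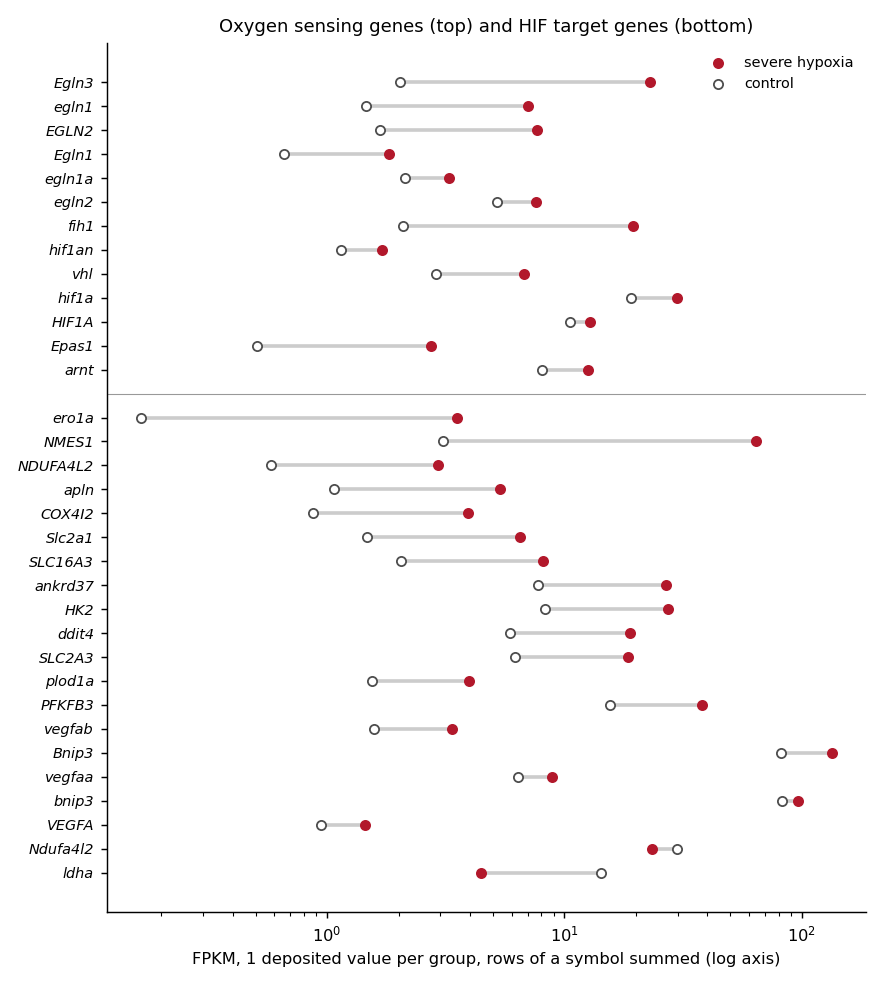
FPKM (horizontal, log axis) in severe hypoxia (filled red) and in the control (open) for genes of oxygen sensing above the line and of HIF targets below it, with rows of a symbol summed. The gap is widest for ero1a, NMES1 and Egln3, narrow for hif1a, bnip3 and vegfaa, and turned round for ldha and Ndufa4l2. The spellings NDUFA4L2 and Ndufa4l2 are both drawn. Joined, that gene had 417 counts in severe hypoxia and 472 in the control (-0.46). FPKM values are scaled to library totals and so sit higher in severe hypoxia than the scaled counts do.

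Genes of glycolysis included high and low members. Of 51 symbols, 7 were past 2-fold on the higher side and 10 on the lower, and the median was -0.05 (0.29 on library totals, and 0.04 joined). Among the higher were transporters of glucose and lactate, a hexokinase, tpi1b and pdk4. The weak pdk4 had 39 counts in severe hypoxia and 7 in the control (2.19 [1.51 to 2.94]). Joined, the related pdk1 had 96.3 in severe hypoxia and 71.0 in the control (0.15 [-0.11 to 0.42]). SLC16A1, a monocarboxylate transporter, had 81.3 counts in severe hypoxia and 13 in the control (2.36), the lactate exporter SLC16A3 had 389 in severe hypoxia and 103 in the control (1.63), hexokinase HK2 had 778 in severe hypoxia and 245 in the control (1.38, and 0.48 joined with hk2), and the glucose transporter SLC2A3 had 847 in severe hypoxia and 327 in the control (1.09). Among the lower were forms typical of skeletal muscle. The muscle enolase ENO3 had 222 counts in severe hypoxia and 670 in the control (-1.88), and the muscle phosphoglycerate mutase PGAM2 had 191 in severe hypoxia and 492 in the control (-1.65). Aldolase went both ways: ALDOA had 644 counts in severe hypoxia and 1823 in the control (-1.79), while the more abundant spelling Aldoa had 10292 in severe hypoxia and 5412 in the control (0.64, and 0.31 joined).

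Muscle markers were low in the same direction. Of 13 muscle symbols, 10 were below 0 and the median was -0.78 (-0.44 on library totals). At least 2-fold lower were 2 contractile genes (0 on totals), and the highest member was at 0.84. TNNI2 had 251 counts in severe hypoxia and 505 in the control, and MYLPF had 512 in severe hypoxia and 981 in the control. The part of muscle RNA in the lower glycolytic genes was not tested. Lactate dehydrogenase ldha had 118 counts in severe hypoxia and 353 in the control (-1.87), and its 2 rows differed: 50.7 in severe hypoxia against 276 in the control for 1 row and 67.3 in severe hypoxia against 77.0 in the control for the other. The abundant enzymes of the pathway differed in both directions. The symbol gpia had 20421 counts in severe hypoxia and 18758 in the control (-0.16, and 0.18 on totals). The symbol gapdh had 12214 in severe hypoxia and 13258 in the control (-0.41). Joined, tpi1b had 4980 in severe hypoxia and 1969 in the control (1.05). The gluconeogenic enzyme fbp1a was at 16293 in severe hypoxia and 23603 in the control (-0.82).

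Respiratory genes were lower by small amounts. Of 104 nuclear-encoded symbols of the respiratory chain, 5 were above 0, 2 at least 2-fold higher and 4 lower, and the median was -0.49 (-0.16 on library totals, and -0.11 with the trend with gene length removed). Examples were ndufb7 of complex I, with 334 counts in severe hypoxia and 659 in the control (-1.27), and ndufa2, with 109 in severe hypoxia and 211 in the control (-1.24). Of the 13 mitochondrially encoded genes, 0 were above 0, with COX1 at 250462 counts in severe hypoxia and 294572 in the control (-0.52) and ND3 at -1.24. The TCA cycle list stood at a median of -0.08 (0.26 on totals), with ogdh alone past 2-fold at 201 counts in severe hypoxia and 81.0 in the control (1.02). NMES1, a small relative of the complex IV subunit ndufa4, had 846 counts in severe hypoxia and 41.7 in the control (4.06 [3.80 to 4.33], and 2.36 joined with nmes1), and both of its rows were high, at 3.76 and 4.44. The gene ndufa4 itself had 1422 counts in severe hypoxia and 1390 in the control (-0.25, and 0.09 on totals).

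Most red cell transcripts were lower on scaled counts. The globin symbols, which encode the chains of haemoglobin, had a median of -1.14, with 6 of 7 at least 2-fold lower. On library totals their median was -0.80 and 0 were at least 2-fold lower. The most abundant, hba4, had 297008 counts in severe hypoxia and 574596 in the control (-1.24), and hbb1 had 216935 in severe hypoxia and 360344 in the control (-1.02). Of 28 symbols of haem synthesis and breakdown, 6 were at least 2-fold lower (0 on library totals), 0 higher, and the median was -0.59 (-0.25 on totals). These included alad, with 189 counts in severe hypoxia and 361 in the control (-1.22, and -0.86 joined), and the mitochondrial iron carrier slc25a37, with 1029 in severe hypoxia and 1848 in the control (-1.13). The rate-setting erythroid enzyme alas2 had 11658 counts in severe hypoxia and 16755 in the control (-0.81).

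Among other erythroid genes the ammonia channel gene rhag had 713 counts in severe hypoxia and 1406 in the control (-1.27, and -0.56 joined), hemgn had 2397 in severe hypoxia and 4732 in the control (-1.27), and the erythropoietin receptor symbol Epor had 974 in severe hypoxia and 1869 in the control (-1.23, and -0.92 joined). Other red cell genes differed little. The membrane skeleton gene sptb had 2129 counts in severe hypoxia and 1607 in the control (0.12), and the receptor symbol EPOR was at -0.05 (above 0 on totals). The 11 symbols used as erythroid markers include the globins hba and hbb and alas2. Their median was -0.81 with 9 below 0 (-0.47 on library totals). The wider erythroid list of 32 symbols had a median of -0.48, with 7 at least 2-fold lower and 0 higher. On library totals the median of that wider list was -0.14, with 13 above 0, 1 at least 2-fold higher and 1 lower. The part of red cell number in the lower globin and haem genes was not tested. Iron handling genes showed 0 symbols past 2-fold among 20, with ferritin fth1-a at 21046 counts in severe hypoxia and 21682 in the control (-0.33, and near 0 on totals).

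Genes of DNA replication were lower with few exceptions. Of 65 symbols, 18 were at least 2-fold lower (6 on library totals), 0 were higher, 4 were above 0, and the median was -0.77. It was -0.43 on library totals and -0.65 with the trend with gene length removed. The replicative helicase is built of MCM subunits. Among them mcm4 had 595 counts in severe hypoxia and 1075 in the control (-1.14), and both of its copies were low, at -1.05 and -1.33. The subunit mcm7 had 646 counts in severe hypoxia and 1145 in the control (-1.11), and mcm2 had 457 in severe hypoxia and 712 in the control (-0.93). Smaller ratios belonged to mcm5 (397 in severe hypoxia and 593 in the control, -0.87) and mcm3 (365 in severe hypoxia and 436 in the control, -0.54). Thymidine kinase TK1 had 56.6 counts in severe hypoxia and 120 in the control (-1.38, and -0.89 joined), the flap nuclease fen1 had 375 in severe hypoxia and 776 in the control (-1.34), and the small ribonucleotide reductase subunit rrm2, which supplies deoxynucleotides, had 1968 in severe hypoxia and 2660 in the control (-0.72). In moderate hypoxia mcm4 stood at 2962 counts and mcm7 at 2812, above both other groups.

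Cell cycle and mitosis genes were less uniform, with 4 of 88 symbols at least 2-fold higher, 7 lower and a median of -0.38 (-0.04 on library totals). Joined, 2 of 74 were higher and 5 lower. The mitotic kinase cdk1 had 889 counts in severe hypoxia and 1474 in the control (-1.02). Against that, cyclin ccna1 had 102 counts in severe hypoxia and 9.00 in the control (3.21 [2.64 to 3.84]), the phosphatase Cdc25b had 191 in severe hypoxia and 47.3 in the control (1.73), the transcription factor E2f3 had 73.3 in severe hypoxia and 24.7 in the control (1.28, and 0.94 joined), and the stress-responsive kinase plk3 had 129 in severe hypoxia and 43.7 in the control (1.28, and 0.42 joined).

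**Figure D3:**
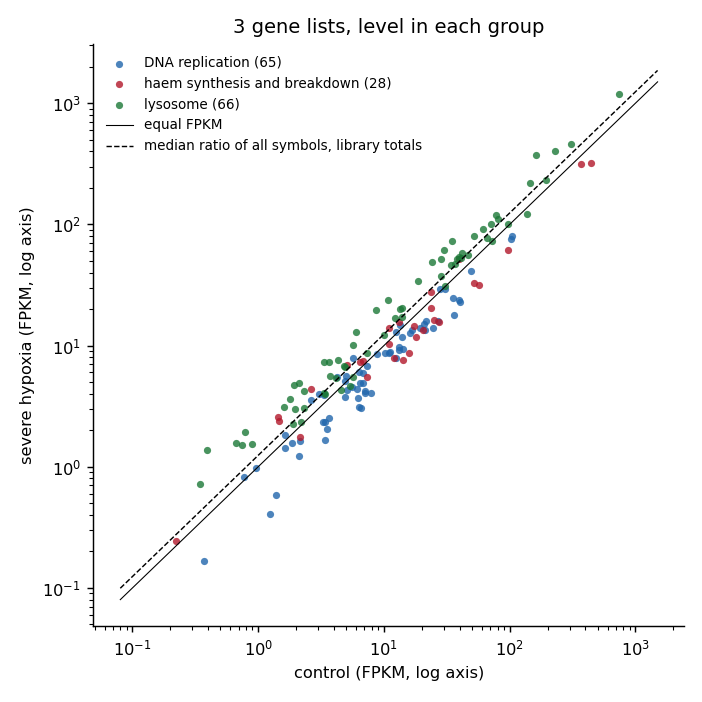
FPKM in severe hypoxia (vertical) against control (horizontal), both on log axes, for symbols of DNA replication (65, blue), haem synthesis and breakdown (28, red) and the lysosome (66, green). The solid line is equal FPKM and the dashed line is the median ratio of all symbols on library totals. Replication and haem symbols lie mostly under the dashed line and lysosomal symbols mostly on or above it.

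Endothelial and growth factor genes were higher. Of 22 endothelial marker symbols, 7 were at least 2-fold higher, 0 lower and 19 above 0, and their median was 0.65. EGFL7, an endothelial matrix protein, had 528 counts in severe hypoxia and 129 in the control (1.74, and 1.28 joined), plvapb, a protein of endothelial fenestrae, had 1261 in severe hypoxia and 368 in the control (1.49), and the cadherin CDH5, which joins endothelial cells, had 2743 in severe hypoxia and 1157 in the control (0.96). VEGF and angiopoietin genes had a median of 0.55, with 6 of 34 at least 2-fold higher and 0 lower (3 of 26 joined). In that list the receptor kdrl had 651 counts in severe hypoxia and 277 in the control (0.95). The receptor flt4 had 207 in severe hypoxia and 92.7 in the control (0.87). Both exceeded the ligands vegfaa and VEGFA, but the ligand vegfab, at 0.75, was close to flt4. The receptor nrp2a went the other way, with 1163 counts in severe hypoxia and 1502 in the control (-0.66). TIE1 had 181 in severe hypoxia and 63.0 in the control (1.23, and 0.67 joined). The part of endothelial cell number in the receptor values was not tested.

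Among 22 symbols of the insulin-like growth factor axis, 8 were at least 2-fold higher and 0 lower, and the median was 0.69. The table holds 40 symbols of that list and the rest were too weak to enter. Without any minimum count the median was 0.32, and joined, 4 of 17 were higher with a median of 0.47. Its growth factor igf2b had 99.3 counts in severe hypoxia and 4.33 in the control (4.23), the binding protein igfbp6 had 1018 in severe hypoxia and 289 in the control (1.53), and the receptor igf2r, which clears IGF2, had 649 in severe hypoxia and 172 in the control (1.63, and 0.97 joined). The ligand igf1 had 103 counts in severe hypoxia and 119 in the control (-0.50). The hypoxia-induced binding protein igfbp1a had 24.7 counts in severe hypoxia and 1.33 in the control (3.92 [2.51 to 5.84]), while the symbol IGFBP1, under the minimum, had 5.33 in severe hypoxia and 8 in the control.

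Blood stem cell niche genes included high and low members, with a median of 0.12 and 6 of 36 at least 2-fold higher (4 of 28 joined). The chemokine cxcl12a, which retains stem cells, had 227 counts in severe hypoxia and 46.7 in the control (2.00), and the progenitor receptor flt3 had 121 in severe hypoxia and 18.7 in the control (2.41). The stem cell transcription factors gata2 and lmo2 were at -0.72 and -0.50. Collagen chains had a median of 0.14, with 5 of 36 higher and 2 lower, and joined, 1 of 27 higher and 1 lower. Other collagen symbols, of 59 in the table, were too weak to enter. COL6A1 had 189 counts in severe hypoxia and 33.0 in the control (2.23, and 0.26 joined), and COL18A1 had 64.5 in severe hypoxia and 15.3 in the control (1.78, and 0.22 joined). COL10A1, the type X collagen of calcifying cartilage, had 8.67 counts in severe hypoxia and 146 in the control (-4.36). Among collagen-modifying enzymes, the lysyl hydroxylase plod3 had 92.7 counts in severe hypoxia and 19.3 in the control (1.97) and loxl2b had 320 in severe hypoxia and 112 in the control (1.23). The rows of the prolyl hydroxylase P4HA1 disagreed: its symbol was at 0.11, while its 3 rows of sufficient level were at 3.17, 0.81 and -0.43.

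**Figure D4:**
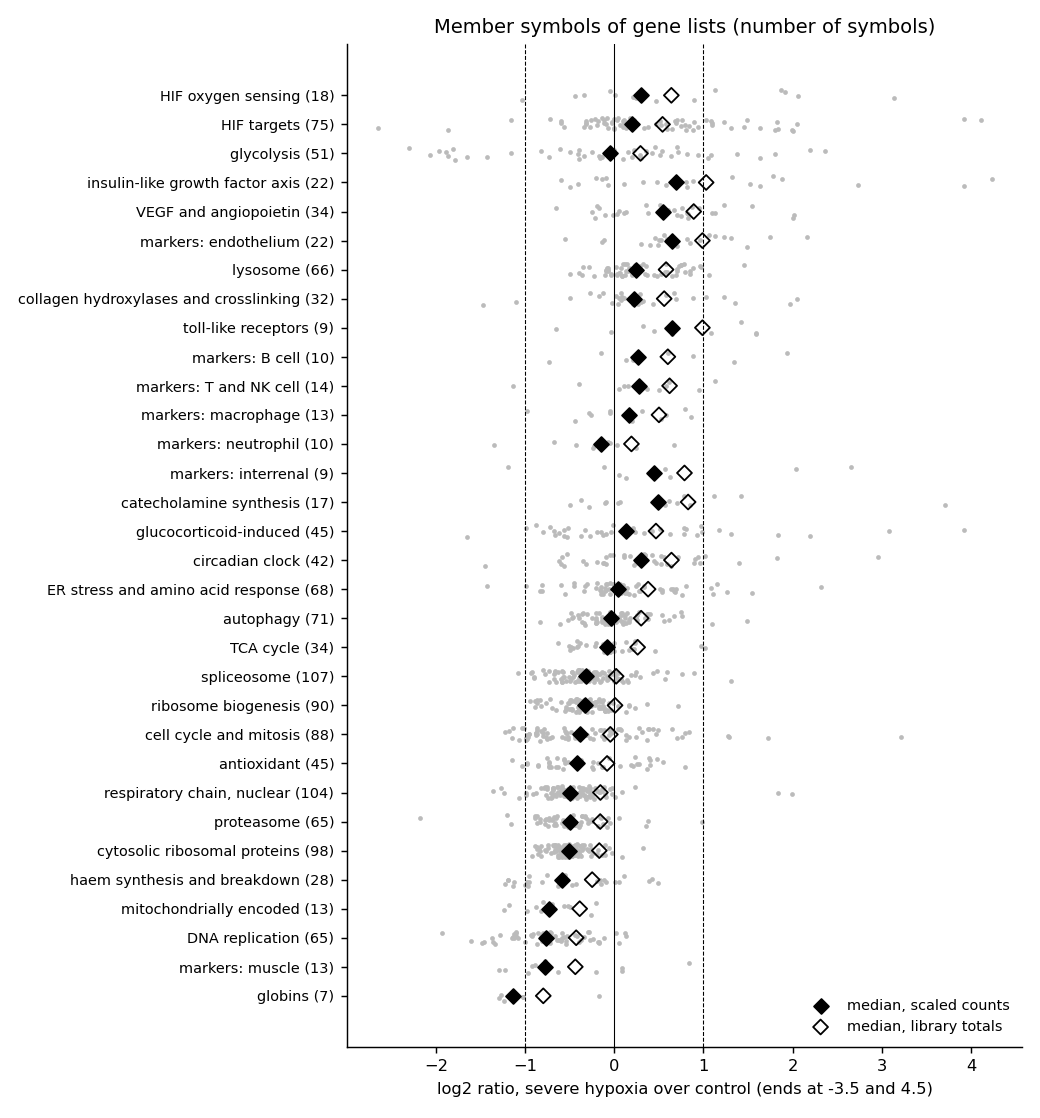
Log2 ratios of severe hypoxia over control for the symbols of 32 gene lists (grey, 1 point per symbol). Filled diamonds are list medians on scaled counts and open diamonds are the same medians on library totals, which lie 0.34 to the right. Endothelial, insulin-like growth factor and toll-like receptor lists sit to the right of 0 on both scalings, and globins, muscle markers and DNA replication sit to the left on both.

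Stress hormone genes were higher in part. The cortisol synthesis list had a median of 0.09, with 10 of 18 symbols above 0, 3 at least 2-fold higher and 1 lower. Joined, 2 of 16 were higher and 1 lower. The highest member was at 2.65, and the genes star, cyp11a1 and cyp17a1, given next, were each under 2-fold. In the interrenal pathway star, which brings cholesterol into mitochondria for steroid synthesis, had 4536 counts in severe hypoxia and 2405 in the control (0.63), cyp11a1 had 306 in severe hypoxia and 184 in the control (0.45), and cyp17a1 had 271 in severe hypoxia and 150 in the control (0.57). Other steps did not follow, with hsd3b1 at 0.05, CYP21A2 at 0.13 and the corticotropin receptor mc2r at 32.9 counts in severe hypoxia and 61.8 in the control (-1.20). The glucocorticoid-induced list had 6 of 45 symbols at least 2-fold higher, 1 lower and a median of 0.13. FKBP5, a co-chaperone of the glucocorticoid receptor, had 1045 counts in severe hypoxia and 102 in the control (3.07 [2.90 to 3.25]), and the separate symbol fkbp5 had 514 in severe hypoxia and 118 in the control (1.84, and 2.54 for both joined). The kinase sgk1 had 243 counts in severe hypoxia and 88.3 in the control (1.17), with rows at 2.50 and 0.43.

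Among chromaffin genes, tyrosine hydroxylase th, the first enzyme of catecholamine synthesis, had 97.0 counts in severe hypoxia and 36.7 in the control (1.12), and the vesicle transporter SLC18A1 had 144 in severe hypoxia and 72.3 in the control (0.70). The later enzymes dbh and Pnmt were at 0.06 and -0.09 (Pnmt above 0 on totals). The catecholamine synthesis list had a median of 0.49, with 3 of 17 symbols at least 2-fold higher and 0 lower (4 of 16 and 0 joined). The table holds 29 symbols of that list and the rest were too weak to enter. The 5 symbols used as chromaffin markers had a median of 0.06, and the 6 joined symbols 0.38. Clock genes had a median of 0.30, with 4 of 42 at least 2-fold higher and 1 lower (2 of 33 and 0 joined). The repressor nr1d2b had 87.0 counts in severe hypoxia and 27.0 in the control (1.40), RORA, an activator of the same promoters, had 131 in severe hypoxia and 57.9 in the control (0.89), and NFIL3 had 38.3 in severe hypoxia and 86.0 in the control (-1.45, and -0.66 joined). The groups carry different labelled times, and for the clock genes too the effects of time and oxygen cannot be told apart.

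Lysosomal genes were higher by small amounts: 51 of 66 symbols were above 0, 2 were at least 2-fold higher, 0 lower, and the median was 0.24. Joined, 40 of 51 were above 0 and 0 were past 2-fold. The abundant cathepsins CTSS (25720 counts in severe hypoxia and 16447 in the control, 0.36) and ctsd (11233 in severe hypoxia and 6761 in the control, 0.45) were among them, as were the cholesterol exporter npc1 (377 in severe hypoxia and 167 in the control, 0.88, and 0.52 joined). The cystine exporter ctns had 85.7 counts in severe hypoxia and 25.7 in the control (1.45), but CTNS had 1300 in severe hypoxia and 1041 in the control (0.09 joined). In the V-type ATPase, which acidifies lysosomes, atp6v0d1 had 364 counts in severe hypoxia and 103 in the control (1.53) and the list median was 0.12. Core autophagy genes had a median of -0.04 (0.30 on library totals), with wdr45b at 236 counts in severe hypoxia and 69.0 in the control (1.48).

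Genes of endoplasmic reticulum stress and of the amino acid response had a median of 0.04, with 6 of 68 symbols at least 2-fold higher and 1 lower, and joined, 1 of 48 higher and 1 lower. The sensor eif2ak3, the kinase PERK, was at 186 counts in severe hypoxia and 68.3 in the control (1.15). The sensor symbol atf6 had 62.7 counts in severe hypoxia and 10.3 in the control (2.31), but the more abundant Atf6 had 665 in severe hypoxia and 574 in the control (0.03 joined). The effector atf4 was at 6227 counts in severe hypoxia and 4900 in the control (0.06). Among the mTORC1 brakes TSC2 had 141 counts in severe hypoxia and 20.0 in the control (2.53, and 0.22 joined) and sesn2 had 26.7 in severe hypoxia and 58.7 in the control (-1.42). Heat shock proteins had a median of -0.12 (0.22 on totals), and hspa8, the most abundant, had 90262 counts in severe hypoxia and 76406 in the control (-0.05, and 0.29 on totals). Antioxidant genes were lower, with a median of -0.42 (-0.08 on totals, -0.17 with the length trend removed) and 32 of 45 symbols below 0, including the peroxiredoxins PRDX6 (791 counts in severe hypoxia and 1435 in the control, -1.15) and PRDX5 (2922 in severe hypoxia and 4899 in the control, -1.03).

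Immune genes differed by receptor and by cell type. Of 9 toll-like receptor symbols, 4 were at least 2-fold higher, 0 were lower and the median was 0.65. Other symbols of that list, which has 13 in the table, were too weak to enter. The bacterial lipopeptide receptor tlr2 had 490 counts in severe hypoxia and 133 in the control (1.59), tlr1 had 114 in severe hypoxia and 35.0 in the control (1.42), and the abundant Tlr13 had 2254 in severe hypoxia and 1354 in the control (0.45), but tlr21 was at -0.66. Macrophage markers had a median of 0.16, with 7 of 13 above 0 and 0 past 2-fold: the mannose receptor MRC1 was at 10605 counts in severe hypoxia and 4786 in the control (0.86), mpeg1.1 at 0.80 and the haem oxygenase hmox1a at 1155 in severe hypoxia and 1870 in the control (-0.98). B cell markers had a median of 0.26, with 2 of 10 symbols at least 2-fold higher and 0 lower (2 of 8 and 0 joined). The marker cd37 had 695 counts in severe hypoxia and 224 in the control (1.34). The antigen receptor subunit CD79A had 2206 in severe hypoxia and 976 in the control (0.89), while CD22 and Cd22 were at 0.25 and 0.21. T and NK cell markers had a median of 0.28, with prf1 at 200 counts in severe hypoxia and 75.1 in the control (1.13) and a differently written symbol, PRF1, at 37.7 in severe hypoxia and 67.7 in the control (-1.13, and 0.52 joined). Neutrophil markers had a median of -0.15 (0.19 on totals), with 3 of 10 above 0: myeloperoxidase MPO stood at 71804 counts in severe hypoxia and 93885 in the control (-0.67), the gelatinase mmp9 at 6125 counts in severe hypoxia and 5197 in the control (-0.05, and 0.29 on totals) and the oxidase subunit CYBB at 0.68.

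Interferon response genes had a median of -0.32, which was 0.02 on library totals, with 2 of 52 at least 2-fold higher and 4 lower. Joined, 1 of 42 was higher and 4 lower. IRF2 had 112 counts in severe hypoxia and 33.0 in the control (1.48), but irf2 had 540 in severe hypoxia and 443 in the control (0.17 joined). The inflammatory list had a median of -0.12 (0.22 on totals), with the NF-kB subunit RELA at 109 counts in severe hypoxia and 18.0 in the control (2.31, and -0.03 joined with the more abundant Rela) and Il1b at 103 in severe hypoxia and 52.0 in the control (0.70). Complement and coagulation genes had a median of 0.14. Factor D, the protease that starts the alternative pathway, was carried by cfd at 9475 counts in severe hypoxia and 2244 in the control (1.79) and by CFD at 23880 in severe hypoxia and 21731 in the control (-0.15, and 0.19 on totals), with 0.19 for both joined. In the lipoxygenase list ALOXE3, a hydroperoxide isomerase, had 1088 counts in severe hypoxia and 3713 in the control (-2.06), with 1 row at 271 in severe hypoxia and 2694 in the control (-3.60) and another at 811 in severe hypoxia and 1007 in the control (-0.60). Of the caspases, casp6 had 23.3 counts in severe hypoxia and 153 in the control (-3.0, and -0.42 joined), and CASP2 had 77.6 in severe hypoxia and 26.9 in the control (1.24, and -0.21 joined).

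Genes of protein synthesis and turnover were lower as lists while few members reached 2-fold. Cytosolic ribosomal proteins had a median of -0.51, with 96 of 98 symbols below 0 and 0 past 2-fold, for example rps2 at 71733 counts in severe hypoxia and 89320 in the control (-0.60). The median was -0.17 on library totals and -0.09 with the length trend removed. Proteasome subunits had a median of -0.50, with 3 of 65 at least 2-fold lower (1 of 51 joined), among them PSMB7 at 224 counts in severe hypoxia and 422 in the control (-1.20, and -0.70 joined), and the activator psme4b stood apart at 748 in severe hypoxia and 310 in the control (0.99). On library totals the proteasome median was -0.16, with 18 symbols above 0, and with the length trend removed it was -0.26. Medians for ribosome biogenesis (-0.33), the spliceosome (-0.32) and aminoacyl-tRNA synthetases (-0.27) were above 0 on library totals, at 0.01, 0.02 and 0.07.

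Gene length moved with these lists. Among deciles of the gene rows by length, the median log2 ratio was -0.36 for the shortest, with a median length of 892 bases, 0.03 for the fifth (2531 bases) and 0.10 for the longest (7189 bases). With the trend removed, the medians of cytosolic ribosomal proteins, nuclear respiratory genes and globins were -0.09, -0.11 and -0.68, each closer to 0. Those of HIF targets, DNA replication and endothelial markers were then 0.23, -0.65 and 0.68.

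**Figure D5:**
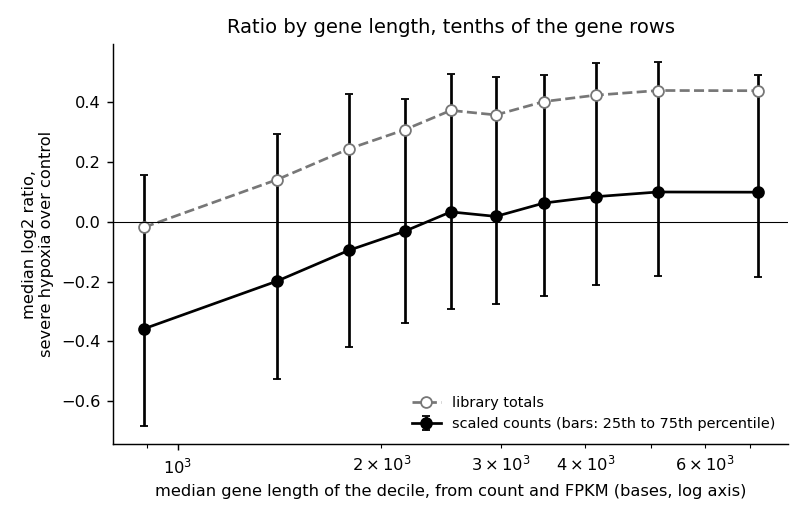
Median log2 ratio of severe hypoxia over control (vertical) in deciles of the gene rows ordered by gene length (horizontal, bases, log axis), for scaled counts (filled, bars from the 25th to the 75th percentile of rows) and library totals (open). The line climbs over the shorter genes, from -0.36 at 892 bases to 0.03 at 2531 bases, and flattens near 0.10 for the longest.

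Oxygen-dependent chromatin enzymes, the lysine demethylases and TET dioxygenases, had a median of 0.15, with 4 of 42 symbols at least 2-fold higher and 0 lower. The higher share, 9.52%, was close to the 9.93% of all symbols. Joined, 3 of 34 were higher and 0 lower. Both spellings of the DNA demethylase TET2 were high, tet2 at 176 counts in severe hypoxia and 53.1 in the control (1.44) and TET2 at 128 in severe hypoxia and 40.6 in the control (1.37), and jmjd6 had 1921 in severe hypoxia and 749 in the control (1.07). Cholesterol genes had a median of -0.02 (0.32 on totals), with 3 of 42 at least 2-fold higher and 0 lower. The uptake receptor LRP1 had 778 counts in severe hypoxia and 296 in the control (1.10), and the exporter ABCA1 had 5154 in severe hypoxia and 2709 in the control (0.64), while the synthesis enzyme fdft1 was at -0.46.

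Several of the largest ratios lay outside these lists. Among the higher genes, Mr1 had 1057 counts in severe hypoxia, 234 in moderate hypoxia and 61.7 in the control (3.81 [3.60 to 4.03] for severe hypoxia over control). The spelling MR1 had 9005 counts in severe hypoxia and 7111 in the control, and joined the ratio was 0.20. FCER2 had 1364 counts in severe hypoxia, 118 in moderate hypoxia and 92.3 in the control (3.60 [3.42 to 3.78]). Counts in moderate hypoxia are also given before scaling, and after scaling FCER2 in moderate hypoxia was below the control (-0.31). The deposited descriptions of the Mr1 and FCER2 rows begin with other names than their symbols, so the symbols are given as the authors assigned them. The kinase SIK2 had 757 counts in severe hypoxia, 764 in moderate hypoxia and 96.9 in the control (2.68). Joined and scaled, SIK2 was at 2.59 for severe hypoxia and 2.17 for moderate hypoxia, each over the control. The actin bundler Pls3 had 360 counts in severe hypoxia, 314 in moderate hypoxia and 48.6 in the control (2.60, and 0.72 joined). The adrenomedullin receptor gene calcrl had 135 counts in severe hypoxia and 14.0 in the control (2.98, and 0.36 joined), with its 3 rows at 3.33, 1.91 and 4.09, and the copper oxidase HEPHL1 had 110 in severe hypoxia and 13 in the control (2.80).

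Among the lower genes, carbonic anhydrase ca1 had 729 counts in severe hypoxia, 2334 in moderate hypoxia and 4429 in the control (-2.89 [-2.96 to -2.83]). The arginine methyltransferase prmt5 had 194 counts in severe hypoxia, 5.78 in moderate hypoxia and 799 in the control (-2.33). The spelling PRMT5 had 1443 counts in severe hypoxia and 955 in the control, and joined the ratio was -0.39. The linker histone symbol H1-2 had 2835 counts in severe hypoxia and 8756 in the control (-1.91), nearly all of it from 1 of its 41 rows, with 2831 in severe hypoxia and 8748 in the control. Low values in both hypoxia groups were also seen for LHFPL4, at 27.6 counts in severe hypoxia, 9.11 in moderate hypoxia and 126 in the control, and for nduba, at 77.8 in severe hypoxia, 68.8 in moderate hypoxia and 298 in the control.

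Trout carry many near-identical gene copies, and single rows past 2-fold often belonged to a symbol whose sum was not. Of 5277 symbols with at least 2 analysed rows, 2133 rows were past 2-fold, and for 28.7% of these rows the symbol sum was past 2-fold in the same direction. For 17.3% of them the sum had the opposite sign. In 56 symbols, rows past 2-fold stood on opposite sides. One ddit4 row had 89.0 counts in severe hypoxia and 0.333 in the control, while the other 2 rows were at 1.03 and 0.98. A row of the translation factor EEF1B2 had 1297 counts in severe hypoxia and 19.1 in the control, yet both rows together were at -0.50. A TRIM62 row had 0 counts in severe hypoxia and 233 in the control, at least 284-fold lower against a floor of 3 counts over the severe group, and the 5 rows of that symbol together were at -0.46. An A2m row had 71.8 counts in severe hypoxia and 0 in the control, at least 58.8-fold higher against the same floor, with 0.79 over the 15 rows of the symbol. Reads of such copies can be assigned to either, so these single rows are uncertain.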

How the data were processed

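Head kidney RNA was sequenced in 9 libraries, 3 per group, and groups were taken from the labels. Per the file headers, the authors deposited 1 FPKM (scaled by gene length and library size) and 1 estimated count per gene and group, with no value per library, so the planned leave-one-out and paired fits could not be made. The submitters' processing notes list HISAT2 and Bowtie2 2.2.8 without a role; for the counting tool and genome build, the sources used here give nothing. The counts were read as means of 3 libraries, since 71.5% of non-zero values in severe hypoxia and 73.9% in the control were whole within 0.002 after multiplication by 3. Counts have no molecular identifiers. With 1 value per group, intervals cover counting error only and leave out differences between fish and the assignment of reads between gene copies.

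Each line of the table is 16 fields of 8 characters. IDs therefore take 95 distinct values, descriptions are cut short, and 2758 rows have symbols of exactly 8 characters, used for a list only where every RefSeq symbol (assembly USDA_OmykA_1.1) beginning that way belonged to it. A symbol was present for 37497 rows. In all, 1985 lines of overrun text were skipped. Severe counts were scaled to the control by trimmed-mean (TMM) factors, with 30% of ratios and 5% of abundances left out at each end. Python 3.11.15 was used with scipy 1.17.1, pandas 2.3.3, numpy 2.4.6 and matplotlib 3.10.9. Gene length was derived from each row's count and FPKM. Intervals are Clopper-Pearson on estimated counts summed over 3 libraries and rounded to whole numbers. The code was tested on simulated counts.

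The members, the 53 gene lists and the rules were chosen with earlier results of these data known, and some list entries were corrected after their members were seen. Genes named were the 15 largest ratios each way with at least 100 counts and one sign in every row and scaling, up to 4 largest and 3 most abundant members per list, a fixed set of hypoxia, hormone and replication genes, and rows apart from their symbol sum. Other named genes were chosen after their values were seen, namely arnt, egln1a, egln2, hif1an, vhl, Ndufa4l2, SLC16A3, HK2, SLC2A3, PGAM2, ndufa4, sptb, EPOR, igf1, igfbp1a, IGFBP1, pdk4, tpi1b, gata2, tlr21 and fdft1, besides the histone symbols and other spellings of named symbols. Alternatives were other scalings, minimum counts, folds and FPKM pseudocounts, subtraction of the median ratio in 50 bins of gene length, and other ways of grouping symbols.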

Additional observations from a re-analysis of the deposited data

How the results depend on the processing

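On library totals, 5183 rows were at least 2-fold higher and 553 lower, and 2530 symbols higher and 191 lower. Totals without globin and mitochondrial genes gave 696 rows and 246 symbols lower, with the counts of higher ones within 1.5 times. On FPKM with a pseudocount of 1 there were 1105 rows higher and 131 lower, and 576 symbols higher and 28 lower; with 0.1 there were 404 rows and 127 symbols lower. With no minimum count 6201 rows were higher and 3608 lower, and 2677 symbols higher and 1391 lower, while a minimum of 50 gave 1536 and 584 rows, and 795 and 225 symbols. A fold of 1.5 gave 5681 and 3627 rows, and 2792 and 1755 symbols, and a fold of 3 gave 1502 and 343 rows, and 666 and 117 symbols. Median-of-ratios size factors, the length trend removed, symbols joined without regard to case and symbols of 8 characters left out kept both counts within 1.5 times.

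Of 23 lists with a median beyond 0.3 in size, 3 changed sign: ribosome biogenesis was at 0.0093 on library totals and at 0.0085 and 0.0092 on the FPKM scales with pseudocounts of 1 and 0.1, the spliceosome at 0.022, 0.047 and 0.048 in the same order, and the interferon response at 0.015, 0.0098 and 0.0099. Library totals raise every ratio by construction. Of 148 named symbols past 2-fold, 114 were past 2-fold when scaled to totals, 113 and 79 in FPKM with pseudocounts of 0.1 and 1, and 104 in the same direction with spellings joined. Joining spellings of named symbols and list members was chosen after seeing the data. It turned the sign of ALDOA (0.31), Art5 (-0.0023), CASP2 (-0.21), EPAS1 (1.39), MYB (-0.26), PRF1 (0.52), RELA (-0.031) and ids (-0.038), and of 0 of the 23 list medians beyond 0.3. No paired analysis was possible because the table holds 1 value per group, and leaving out single libraries was not run for the same reason. With the spread between fish unknown, the depth sets only the counting error, which is wide for genes of few counts such as igfbp1a.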

Other observations

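Histone symbols were looked at after H1-2 had been seen. The variant histone symbols H2AFZ (1615 counts in severe hypoxia and 2161 in the control, log2 ratio -0.71) and H2AZ2 (6105 in severe hypoxia and 7639 in the control, -0.61) and the symbol h2ax (6355 in severe hypoxia and 9257 in the control, -0.83) were below 0 on scaled counts and on library totals. The linker histone symbol H1-10 had 7312 counts in severe hypoxia and 7440 in the control (-0.31, and 0.03 on totals). Rows of this family share reads, and h2ax is carried by 45 rows, so single values are uncertain.

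Of 3497 analysed rows without a symbol, 425 were past 2-fold on the higher side (12.2%) and 371 on the lower side (10.6%), against 12.4% and 4.30% of all rows. Of rows with at least 10 counts in the other group, 27 were listed at 0 in the control and 21 at 0 in severe hypoxia. In the thrombocyte list thbs1b, a thrombospondin, had 212 counts in severe hypoxia and 37.3 in the control (2.22), beside a list median of 0.12. The 12 liver and pancreas marker symbols had a median of -0.25 (0.09 on library totals), with 7 below 0, 3 at least 2-fold lower and 0 higher. Among exocrine pancreas genes were Prss1 (108 counts in severe hypoxia and 283 in the control, -1.68) and CTRB1 (23.0 in severe hypoxia and 59.7 in the control, -1.66). Joined, the pancreas gene cpa1 was at -0.56. The liver gene apoa2 had 294 counts in severe hypoxia and 229 in the control (0.08). FGG, at the upper end of the list, had 185 in severe hypoxia and 121 in the control (0.32).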
